A study of Mus musculus with 4 samples.

Results

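The 65 genes described here encode amino acid and peptide transporters of 8 solute carrier families. They were all genes named by a probe set annotated to 1 gene whose symbol is Slc1a, Slc3a, Slc6a, Slc7a, Slc15a, Slc36a, Slc38a or Slc43a followed by a number, and they make up 65 of 18193 genes named on the array. They were read by 129 probe sets, each a group of short probes against a transcript. A further 4 probe sets of 3 genes on the opposite strand (Slc7a6os, Slc6a19os and Slc36a1os) match the same letters but name no transporter, and were set aside. The signals came from Affymetrix arrays of RNA from dorsal epidermis of mouse embryos at E15.5. Mutant embryos carried KRT14-Cre and 1 allele of Ctnnb1(Ex3)fl/+ (2 arrays), and controls were littermates (2 arrays), whose own genotype the labels do not give. Cre under the keratin 14 promoter acts in basal keratinocytes and their descendants, and removes exon 3 of Ctnnb1, which leaves a beta-catenin that escapes destruction. The labels give a separate embryo for each array, and dispase was used to part the epidermis from the dermis.

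Cells take up amino acids through carriers that differ in substrate and in what drives them. Members of the Slc7 family that work as exchangers need a heavy chain of the Slc3 family to reach the cell surface. Slc38 and several Slc1 and Slc6 carriers use the sodium gradient. Slc15 carriers move peptides with protons, and some Slc36 carriers move amino acids with them. The comparison bears on how such supply stood in an epidermis that made hair keratins. Hair keratins and the keratin-associated proteins around them are rich in cysteine. Classes of keratin-associated proteins are also rich in serine, glycine or tyrosine, so a cell that forms a hair shaft draws on these amino acids.

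In mutant epidermis Slc7a8, an exchanger of neutral amino acids that pairs with the Slc3a2 heavy chain, was at least 67.6-fold higher than in control epidermis. Slc38a1, Slc38a3 and Slc1a5, which carry glutamine and small neutral amino acids, rose, as did Slc7a1, a widely expressed importer of arginine and lysine. The class did not rise as a whole, since its brighter members Slc38a4 and Slc38a2 fell and did not pass, respectively. Slc15a3, a lysosomal peptide and histidine transporter, was at least 21.3-fold lower, and Slc1a3, a glutamate and aspartate transporter, at least 9.30-fold lower. Slc7a11, the cystine and glutamate exchanger, also fell.

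Probe sets entered the test if at least 2 of the 4 arrays gave a signal over the 40th percentile of that array (14.4 to 16.1), here called background. Where both arrays of a group lay below it, the fold is a bound, written as at least, with the dim signals raised to that percentile. Of the 65 genes 43 were tested, through 85 probe sets, and 22 were set aside as dim. Each tested gene was read by its brightest tested probe set, and the adjusted p-values below come from limma over all 28434 tested probe sets. Of the 43 genes, 17 were higher and 10 lower at an adjusted p under 0.05, and 16 did not pass. Among all 12469 tested genes the same rule called 20.6% higher, 24.5% lower and 45.1% in either direction, against 39.5%, 23.3% and 62.8% of the transporters. Of the genes called, 12 were also at least 2-fold higher by the fit and 6 at least 2-fold lower, where 10.7% and 10.1% of all tested genes met both limits. The median change of the 43 genes was 0.16 on the log2 scale, beside -0.06 for all tested genes, and the median size of the change was 1.00 beside 0.45. These medians use fitted changes, which exceed the bounds where 1 group was below background. Above background on all 4 arrays were 28 of the 43 transporters, beside 10666 of all 12469 genes. The part of dim signals in the median size was not tested.

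These counts depend on which genes could be tested. Among the 43 genes, 5 were above background only on both mutant arrays (Slc7a8, Slc6a15, Slc43a2, Slc6a13 and Slc3a1). Another 3 were so only on both control arrays (Slc15a3, Slc1a3 and Slc6a19). Passing the filter already made these genes differ. Of the 28 genes above background on all 4 arrays, 13 were higher, 6 lower and 9 did not pass, where 19.5% of all such genes were higher, 25.7% lower and 45.2% called either way. Without the filter, 15 of the 65 genes were higher and 10 lower, or 23.1% and 15.4%, beside 13.0% and 15.2% of all genes. At the level of probe sets, 25 of the 85 were higher and 22 lower, where 18.9% and 20.5% of all tested probe sets were, 39.4% together. With 2 arrays in each group, the smallest two-sided p of an exact permutation test is 0.333, so each call rests on the pooling of spread over probe sets. In RNA of a whole tissue, fewer cells of a type and less transcript per cell cannot be told apart.

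**Figure D1:**
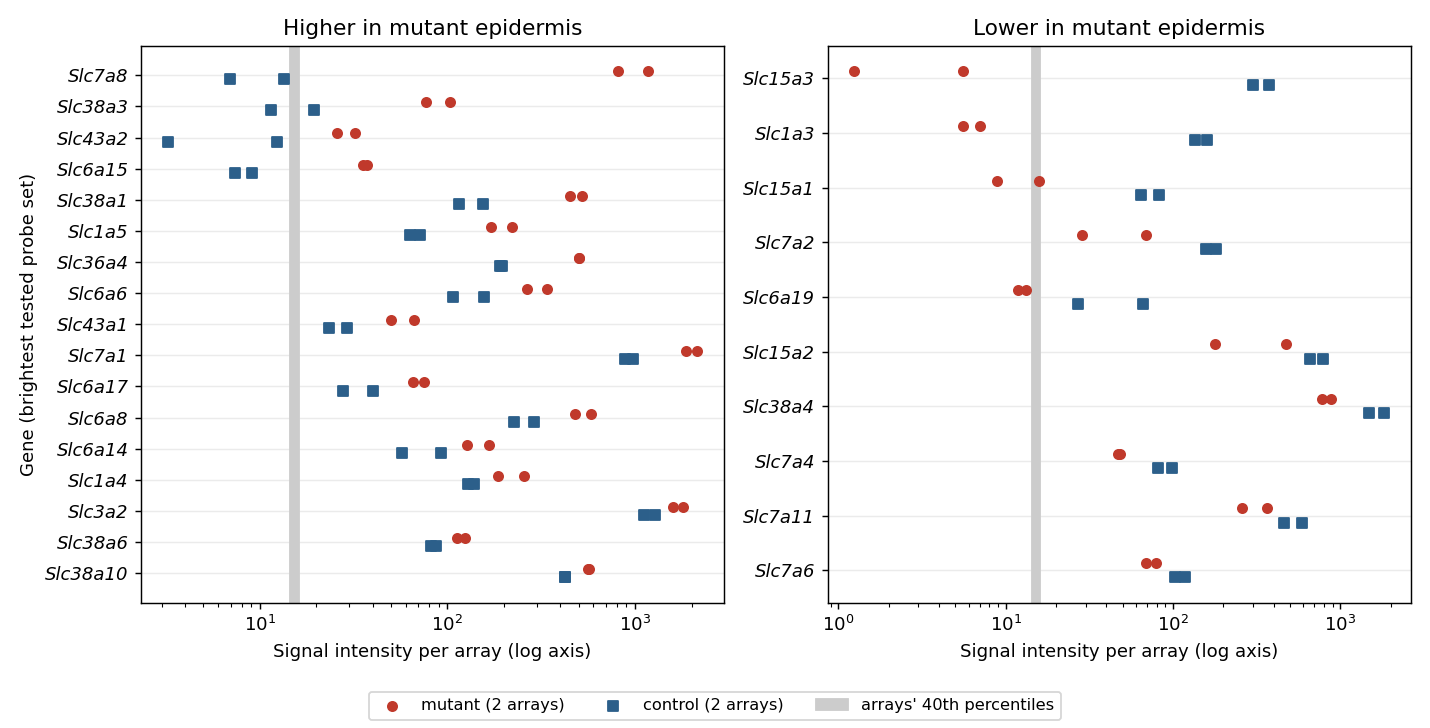
Signal intensity on each array (log axis) of the 17 transporter genes that were higher and the 10 that were lower in mutant epidermis, with mutant arrays as red circles and control arrays as blue squares. The grey band spans the 40th percentiles of the 4 arrays, and no gene has overlapping groups. Slc7a8 stands at 815 and 1179 in mutants and left of the band in both controls, and Slc15a3 and Slc1a3 stand left of the band in both mutants.

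The same arrays gave the following for tissue and quality. Ctnnb1 was higher in mutants on all 3 of its probe sets, by 0.47 to 0.89 on the log2 scale, which does not check the deletion of exon 3. All 5 keratinocyte markers (Krt5, Krt14, Trp63, Krt1 and Krt10) were above background, with summed signals of 13245 and 14695 in mutants and 31857 and 32803 in controls. Krt1 and Krt10, of the suprabasal layers, fell (log2 changes of -3.98 and -3.57), as did Krt14 (-0.35), and Krt5 and Trp63 did not pass. Melanocyte markers were higher in mutants in 9 of 10 cases, with summed signals of 5478 and 6692 in mutants and 1884 and 1872 in controls. Of 5 tested neuron and Schwann cell markers 3 were higher and 2 lower (summed 2119 and 2107 in mutants, 1622 and 1575 in controls). Tubb3 had 765 and 819 in mutants and 25.7 and 17.3 in controls, Stmn2 was at least 6.72-fold higher, and Mbp fell (-1.23). Of 7 tested dermal fibroblast markers 1 was higher and 2 were lower (summed 3671 and 4129 in mutants, 3443 and 4222 in controls). The fibroblast sums were mostly Dcn, with 3444 and 3704 in mutants and 2908 and 2900 in controls. Col1a2 was uneven between replicates, with 44.0 and 74.4 in mutants and 118 and 376 in controls. Of 5 tested Merkel cell markers 2 were higher and 1 was lower (summed 881 and 681 in mutants, 832 and 955 in controls), with Sox2 and Isl1 below background throughout. Piezo2 was at least 9.02-fold and Tmem163 at least 1.7-fold higher, and Krt18 fell (-0.65). Pecam1, Cdh5 and 4 more of 8 endothelial genes, 5 of 6 genes of red blood cells, 5 of 8 muscle genes and 3 of 8 immune genes, Ptprc among them, were above background on no array. In the main fit no gene of these 4 lists was called. The 1 tested gene of red blood cells had 20.3 and 24.7 in mutants and 4.17 and 0.15 in controls (adjusted p = 0.0539). It was called higher with the offset of 16 and with the replicate block. The counts of fibroblast, neuron and Schwann, and Merkel markers called each moved by 1 or 2 genes on leaving out some single arrays. Actin probes gave a ratio of 3' to 5' signal of 1.24 and 1.21 in mutants and 1.17 and 1.15 in controls. The part of these cell types and of RNA quality in the transporter results was not tested.

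Promoters are shown for 4 members on which the results turn and for which RefSeq (GRCm38.p6) gives a start, 1 far higher, 1 higher, 1 lower and 1 far lower in mutants. Each line is the 250 bases before the start, 5' to 3' on the gene's strand, in lower case. Capitals mark matches on either strand to CTTTGA, a core of the site bound by the TCF/LEF partners of beta-catenin, to TGATGNAA, the element through which ATF4 acts on genes of the amino acid response, or to TGACNNNGC, the antioxidant response element. No match overlapped one to another motif in these windows.
Slc7a8, chr14:54781887-54782136, minus strand: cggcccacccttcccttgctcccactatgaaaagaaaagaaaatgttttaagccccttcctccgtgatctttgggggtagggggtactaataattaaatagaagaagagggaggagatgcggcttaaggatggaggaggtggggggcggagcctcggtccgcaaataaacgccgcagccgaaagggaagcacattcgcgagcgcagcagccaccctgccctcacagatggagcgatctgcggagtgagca
Slc7a1, chr5:148392816-148393065, minus strand: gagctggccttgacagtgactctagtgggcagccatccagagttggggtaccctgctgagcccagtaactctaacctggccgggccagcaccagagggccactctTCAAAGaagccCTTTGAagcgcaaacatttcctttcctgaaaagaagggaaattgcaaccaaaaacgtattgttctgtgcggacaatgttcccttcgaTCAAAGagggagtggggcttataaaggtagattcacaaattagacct
Slc7a11, chr3:50443614-50443863, minus strand: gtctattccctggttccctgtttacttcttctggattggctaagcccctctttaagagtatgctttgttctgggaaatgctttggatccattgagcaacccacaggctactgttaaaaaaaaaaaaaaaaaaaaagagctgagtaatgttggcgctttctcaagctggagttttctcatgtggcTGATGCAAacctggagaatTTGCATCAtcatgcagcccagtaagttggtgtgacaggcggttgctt
Slc1a3, chr15:8710808-8711057, minus strand: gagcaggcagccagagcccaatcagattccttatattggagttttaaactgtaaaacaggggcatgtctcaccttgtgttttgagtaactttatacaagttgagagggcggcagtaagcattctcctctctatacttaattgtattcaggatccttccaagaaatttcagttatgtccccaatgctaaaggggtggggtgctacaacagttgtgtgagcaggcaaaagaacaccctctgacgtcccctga

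The Slc7a1 window held 3 matches to CTTTGA, which begin 145, 134 and 47 bases before the start, and the window of a second Slc7a1 start held none of these but 1 match to TGACNNNGC, 11 bases before that start. The Slc7a11 window held 2 matches to TGATGNAA in opposite orientation, 66 and 47 bases before the start. The windows of Slc7a8 and Slc1a3 held no match to any of the 3 motifs. Over all 32851 promoter windows of this length 13.8% held CTTTGA, 3.45% TGATGNAA and 10.2% TGACNNNGC. Of 68 windows of 47 member genes 17.6%, 5.88% and 13.2% did. Of 14 windows of genes called higher 3 held CTTTGA, 0 TGATGNAA and 2 TGACNNNGC. Of 10 windows of genes called lower 0 held CTTTGA, 1 TGATGNAA and 1 TGACNNNGC. These counts are small, and no difference from the shares over all windows was tested. A match describes letters in these windows and shows no binding.

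The heterodimeric exchangers were led by Slc7a8. It was read by 1 probe set, which had signals of 815 and 1179 on the mutant arrays, against 6.92 and 13.5 on the control arrays, which are below background. The groups lay far apart, with an adjusted p of 4.59e-06, and the fitted change was 6.19 to 7.15 (log2) on leaving out any 1 array. Slc7a8 passed the filter only through the mutant arrays, so its groups already differed on entering the test. In the authors' deposited table, which was computed from the same arrays by another method, Slc7a8 was 298.5-fold higher in mutants. Slc3a2, the 4F2 heavy chain (CD98) that several Slc7 exchangers share, had signals of 1595 and 1791 in mutants and 1118 and 1283 in controls. In what follows, ± gives the moderated SE of the limma fit, which pools spread over probe sets. The rise of Slc3a2 was 0.50 ± 0.11 (log2, 2 arrays a group, adjusted p = 7.84e-03), small beside that of Slc7a8. Without control 1 it was 0.40 with an adjusted p of 0.0545, in a range of 2.60e-03 to 0.0780 over 11 alternative fits.

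No other tested light chain of the exchangers passed as higher. Slc7a5, which carries leucine and other large neutral amino acids, had 942 and 943 in mutants and 913 and 798 in controls, a change of 0.14 ± 0.10 that did not pass (adjusted p = 0.296). Slc7a6, which exchanges cationic for neutral amino acids, had 69.1 and 78.7 in mutants and 118 and 103 in controls and fell by 0.58 ± 0.17 (adjusted p = 0.0316). It did not pass on leaving out control 1 (adjusted p = 0.158), control 2 (0.0598) or mutant 1 (0.112), and the other probe set of Slc7a6, with -0.53 ± 0.19, did not pass. Slc7a7, its relative with the same exchange mode, and Slc7a10, a carrier of small neutral amino acids, stayed near background in both groups. The highest Slc7a7 signal was 17.2 in mutants and 17.6 in controls on its brightest probe set, and that of Slc7a10 was 16.3 in mutants and 17.2 in controls.

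Cystine carriers gave no rise that passed. Slc7a11 brings in cystine, the oxidised pair of cysteines, in exchange for glutamate. Its brightest probe set had 366 and 260 in mutants and 461 and 592 in controls, and its other one had 85.8 and 65.1 in mutants and 160 and 229 in controls. All mutant values lay under all control values on both, with falls of 0.76 ± 0.19 (adjusted p = 0.0140) and 1.36 ± 0.22 (adjusted p = 2.16e-03). Without control 2 the first fall was 0.58 with an adjusted p of 0.0778, in a range of 2.65e-03 to 0.0924 over the alternative fits. In the authors' deposited table these probe sets were 2.04-fold and 3.88-fold lower in mutants. Slc7a9 and Slc3a1 form the cystine carrier of kidney and gut. Slc7a9 was below background on every array, and Slc3a1 had 16.7 and 16.2 in mutants and 7.05 and 9.60 in controls, which did not pass (adjusted p = 0.184). Slc1a1, which can carry cysteine beside glutamate, was below background on all arrays on each of its 3 probe sets.

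The cationic amino acid transporters moved apart. Slc7a1 (CAT1) had 1871 and 2146 in mutants and 979 and 888 in controls and rose by 1.10 ± 0.10 (adjusted p = 1.33e-04). A second probe set rose by 1.32, a dimmer one with 0.36 ± 0.27 did not pass, and the call of the first was kept in each of the 11 alternative fits. Slc7a2 (CAT2), which serves the same substrates, had 28.5 and 68.8 in mutants and 157 and 180 in controls. It fell by 1.92 ± 0.37 (adjusted p = 4.77e-03), and its other 3 tested probe sets fell too, with both mutants below background, by at least 2.32-fold, 2.42-fold and 2.62-fold. The mutant arrays differed from each other here: the change was -1.29 without mutant 1 and -2.56 without mutant 2. Without the intensity trend its adjusted p was 0.0524. Slc7a4, a relative of these carriers, had 47.2 and 48.5 in mutants and 98.8 and 81.3 in controls and fell by 0.91 ± 0.20 (adjusted p = 8.86e-03). The change of Slc7a4 was -0.77 with an adjusted p of 0.0675 without control 1. On a dimmer probe set, with both mutants below background, it was at least 3.11-fold lower. Slc7a3 (CAT3), with 21.1 and 31.5 in mutants and 15.9 and 17.0 in controls, did not pass.

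**Figure D2:**
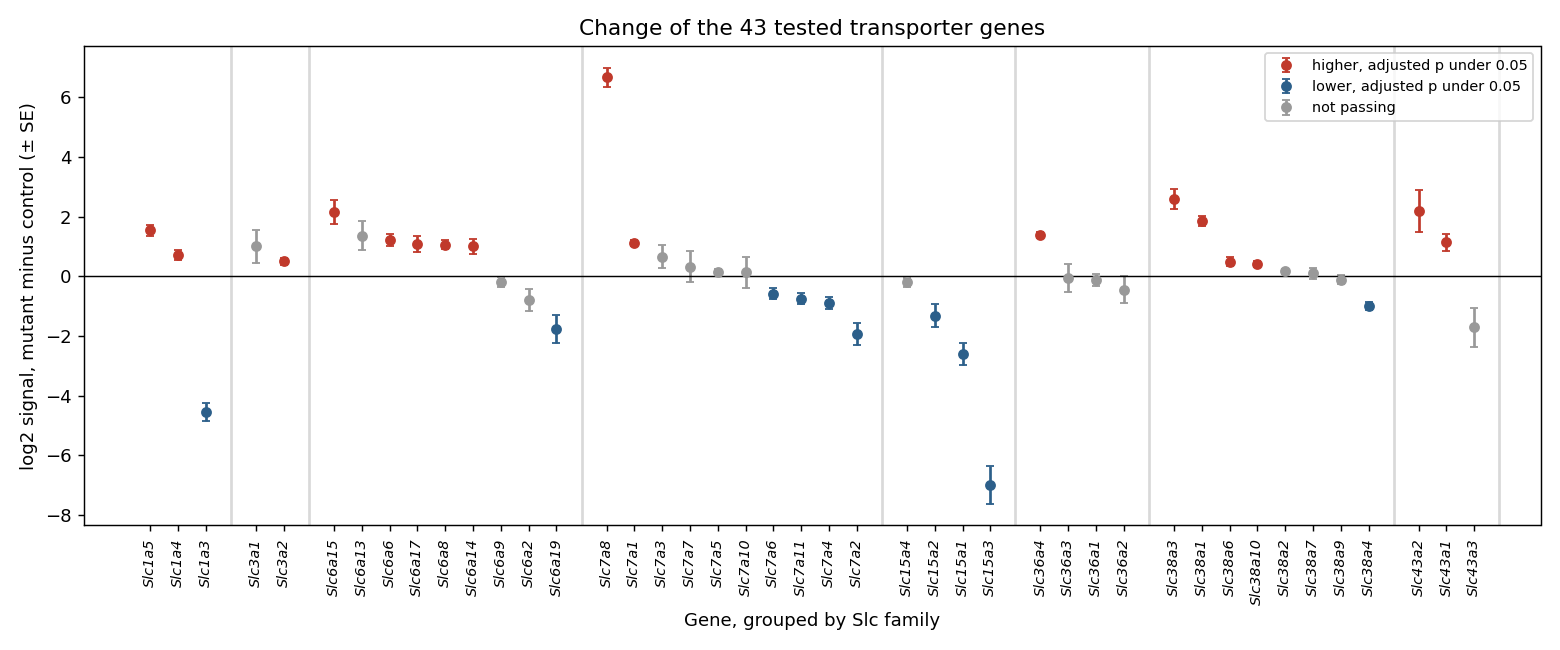
Log2 change in signal, mutant minus control, of the 43 tested transporter genes by family, with bars of 1 SE of the fit. Changes run from -6.997 for Slc15a3 to 6.67 for Slc7a8. These fitted values use signals below background in 1 group, so they are larger than the bounds of 21.3-fold and 67.6-fold in the text. Of 4 tested Slc15 genes 3 were called lower and 0 higher, and of 10 tested Slc7 genes 2 were higher and 4 lower. Among all tested genes 20.6% were higher and 24.5% lower.

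Slc1a5 (ASCT2), which exchanges glutamine and other neutral amino acids, had 172 and 221 in mutants and 63.1 and 71.3 in controls. It rose by 1.54 ± 0.18 (adjusted p = 4.04e-04), and its second, dimmer probe set rose by 1.48 (adjusted p = 0.0497). Control 2 lay below background on that second probe set, so the size there is uncertain. Slc1a4 (ASCT1), which carries alanine, serine, cysteine and threonine, had 186 and 256 in mutants and 139 and 129 in controls and rose by 0.71 ± 0.18 (adjusted p = 0.0153). That call was lost without control 2 (0.65, adjusted p = 0.0637) and without mutant 2 (0.47, adjusted p = 0.0746). A second probe set of Slc1a4 rose by 0.94 and another, with 0.26, did not pass.

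Of 8 tested genes of the Slc38 family 4 were higher, 1 was lower and 3 did not pass, beside 20.6% of all tested genes higher and 24.5% lower. Slc38a1 (SNAT1), a glutamine and alanine importer, had 524 and 448 in mutants and 156 and 115 in controls. It rose by 1.86 ± 0.17 (adjusted p = 1.13e-04) and by 1.67 on its other probe set, the brighter one carrying an s mark for probes that can read related transcripts. Slc38a3 (SNAT3), known for glutamine transport in liver and kidney, had 77.0 and 104 in mutants and 11.5 and 19.5 in controls (2.58 ± 0.34, adjusted p = 7.18e-04). Control 1 lay below background for Slc38a3, so the size of this fold is uncertain, and its other probe set was too dim to test.

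Slc38a2 (SNAT2), a carrier induced by amino acid shortage in cultured cells, had 1957 and 1971 in mutants and 1847 and 1673 in controls and did not pass (0.16 ± 0.09, adjusted p = 0.192). None of its 3 probe sets passed. Slc38a4 (SNAT4) went the other way, with 876 and 778 in mutants and 1493 and 1826 in controls, and fell by 1.00 ± 0.12 (adjusted p = 4.93e-04) and by 0.96 on its second probe set. Slc38a6 had 123 and 113 in mutants and 86.6 and 81.6 in controls and rose by 0.49. Slc38a10 had 570 and 562 in mutants and 424 and 425 in controls and rose by 0.41. The call of Slc38a6 was lost on leaving out any 1 array (adjusted p = 0.0724 to 0.158), and that of Slc38a10 without control 1 (adjusted p = 0.0517), and 4 of 6 probe sets of Slc38a10 did not pass. Slc38a7 and Slc38a9, which move glutamine and arginine across the lysosomal membrane, did not pass, nor did any of the 7 probe sets of Slc38a9, with changes from -0.51 to 0.07. Slc38a5 was below background throughout.

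Of the acidic amino acid carriers 1, Slc1a3, could be tested, and it fell to background in mutants. Slc1a3 (GLAST) is known best from astrocytes, where it clears glutamate. Its brightest probe set had 5.53 and 6.999 in mutants and 159 and 136 in controls, at least 9.30-fold lower in mutants (adjusted p = 2.14e-05). All 5 tested probe sets of Slc1a3 fell, with mutant signals of at most 6.999 and control signals of at least 30.6. Of them 4 were listed in the authors' deposited table, 27.3-fold to 53.7-fold lower in mutants. Slc1a2 and Slc1a6, glutamate transporters of brain, were below background on every array, as Slc1a1 was, and Slc1a7 was above it on mutant 1 alone.

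Peptide transporters were lower or did not pass. Slc15a3 (PHT2), which exports histidine and short peptides from lysosomes and is best known from immune cells, had 5.58 and 1.25 in mutants and 302 and 377 in controls (adjusted p = 1.04e-04). In the authors' deposited table its ratio was 0.01 in both mutants, 98.8-fold lower. Both mutant signals were below background, so the size of the fall is given only as the bound of 21.3-fold. Slc15a1 (PEPT1), the peptide importer of the intestine, had 8.87 and 15.9 in mutants and 64.0 and 82.5 in controls (-2.62 ± 0.37, adjusted p = 1.09e-03). Mutant 1 lay below background for Slc15a1, so the size of that fold is uncertain.

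Slc15a2 (PEPT2), the high-affinity importer of di- and tripeptides, had 474 and 178 in mutants and 792 and 663 in controls. It fell by 1.32 ± 0.38 (adjusted p = 0.0274), but the mutants differed widely from each other, and the change was -2.03 without mutant 1 and -0.61 without mutant 2. The call was lost without control 1 (adjusted p = 0.105) and without control 2 (adjusted p = 0.0564), in a range of 2.68e-05 to 0.140 over the alternative fits. Its other 2 tested probe sets, both dimmer, did not pass (adjusted p = 0.142 and 0.694). Slc15a4 (PHT1), the lysosomal relative of Slc15a3, had 137 and 146 in mutants and 179 and 150 in controls and did not pass. The 8 immune markers had summed signals of 101 and 152 in mutants and 154 and 170 in controls, and none of the 4 tested was called. The median log2 change of these 4 was -0.61, and Ptprc, which defines leukocytes, was below background on all arrays. The part of immune cells in the fall of Slc15a3 was not tested.

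The Slc6 family is named for neurotransmitter carriers but also holds carriers of taurine, creatine, glycine and neutral amino acids. Of its 20 genes 9 were tested, with 5 higher, 1 lower and 3 not passing, where 20.6% of all tested genes were higher and 24.5% lower. Slc6a6, the taurine transporter, had 264 and 340 in mutants and 156 and 107 in controls and rose by 1.22 ± 0.21 (adjusted p = 2.77e-03), or by 2.03 on its other tested probe set. Slc6a8, the creatine transporter, had 481 and 584 in mutants and 288 and 227 in controls and rose by 1.05 ± 0.15 (adjusted p = 1.27e-03), with 1.03 on a second probe set.

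Slc6a14, which carries neutral and cationic amino acids together, had 167 and 127 in mutants and 57.1 and 92.9 in controls and rose by 1.00 ± 0.26 (adjusted p = 0.0173). It was 0.65 without control 1 and 0.80 without mutant 1, with adjusted p-values of 0.0715 and 0.0721. Slc6a15, a carrier of branched-chain amino acids and proline known from brain, had 37.1 and 35.6 in mutants and was below background in both controls at 7.36 and 9.07, at least 2.51-fold higher (adjusted p = 4.71e-03). Slc6a17, a vesicular amino acid carrier of neurons, had 65.3 and 74.9 in mutants and 39.9 and 27.7 in controls (1.07 ± 0.26, adjusted p = 0.0133). Its call was lost without control 2 (adjusted p = 0.0587) and without mutant 2 (adjusted p = 0.0553), and its other 2 probe sets did not pass.

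Slc6a19, the neutral amino acid carrier of kidney and gut, had 11.8 and 13.2 in mutants, both below background, and 26.9 and 66.3 in controls, at least 2.67-fold lower (adjusted p = 0.0209). It rested on control 2, without which the adjusted p was 0.187, against 7.87e-03 without control 1. In the authors' deposited table its ratio was 0.163 and 0.191 in the mutants, 0.204 in control 1 and 1.80 in control 2. Slc6a9, the glycine transporter GlyT1, had 90.7 and 112 in mutants and 115 and 113 in controls and did not pass. Slc6a2, the noradrenaline transporter, did not pass on its brightest probe set (-0.79 ± 0.36) and fell on 1 dimmer one, where both mutants were below background. Without mutant 1 the change on the brightest was -1.16 with an adjusted p of 0.0488. Slc6a13, a GABA and taurine carrier, had 22.7 and 19.4 in mutants and 8.50 and 7.87 in controls, with an adjusted p of 0.0612.

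Of the Slc36 family only Slc36a4 (PAT4), a high-affinity carrier of proline and tryptophan, passed. It had 503 and 501 in mutants and 190 and 196 in controls and rose by 1.38 ± 0.11 (adjusted p = 5.24e-05), a call kept in each of the 11 alternative fits. Slc36a1, which exports small amino acids from lysosomes, had 74.5 and 101 in mutants and 99.4 and 89.0 in controls. The groups of Slc36a1 overlapped, as did those of Slc36a2 and Slc36a3, which lay near background.

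In the Slc43 family, sodium-independent carriers of large neutral amino acids, Slc43a1 (LAT3) had 66.2 and 49.8 in mutants and 23.4 and 29.1 in controls and rose by 1.14 ± 0.28 (adjusted p = 0.0138). It had 0.98 and an adjusted p of 0.0596 without control 1, and 0.93 and 0.0748 without mutant 1. Slc43a2 (LAT4) had 32.3 and 25.7 in mutants and was below background in both controls at 12.4 and 3.23, at least 1.99-fold higher (adjusted p = 0.0391). Slc43a2 did not pass on leaving out control 2 (adjusted p = 0.0948), mutant 1 (0.13) or mutant 2 (0.0771). Slc43a3, a carrier of purine bases, had 25.2 and 5.67 in mutants and 37.0 and 41.7 in controls and did not pass (-1.72 ± 0.65, adjusted p = 0.0709). Its change was -2.79 without mutant 1, which passed (adjusted p = 1.85e-03), and -0.64 without mutant 2.

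The remaining genes set aside as dim belong mostly to the Slc6 and Slc7 families. Among them were Slc6a3 and Slc6a4, the dopamine and serotonin transporters, Slc6a5 for glycine, Slc6a11 and Slc6a12 for GABA or betaine, Slc6a7 for proline, and Slc6a16, Slc6a18, Slc6a20a, Slc6a20b and Slc6a21. The others were Slc7a12, Slc7a13, Slc7a14, Slc7a15 and Slc15a5. Of the 22 untested genes, 21 had no signal above background on any array.

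The authors' deposited table lists probe sets changed at least 2-fold by the GCRMA method, 6290 of the 45101 on the array. It held 37 of the 129 transporter probe sets, of 23 genes. Of these genes 13 were higher and 10 lower in mutants in the authors' deposited table. All 37 were also called here in the same direction, from the same arrays. Slc1a5 was 4.74-fold, Slc38a1 4.93-fold, Slc38a3 7.81-fold and Slc36a4 2.95-fold higher in the authors' deposited table.

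Hair keratin and keratin-associated protein genes were almost all higher on the same arrays. All 12 tested hair shaft keratins and 33 of 35 tested keratin-associated protein genes rose, beside the 20.6% of all tested genes called higher. Krt31, a type I hair keratin, had 7561 and 9076 in mutants and 13.2 and 11.03 in controls. Summed over the hair keratins, signals were 47348 and 58434 in mutants and 163 and 191 in controls. With 2 arrays a group, no relation between transporter and keratin levels across embryos could be tested.

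Amino acid carriers of other families were higher in 5 of 10 tested genes and lower in 1, beside 20.6% and 24.5% of all tested genes. The higher ones numbered 3 with median centring, without the intensity trend, without control 2 and without mutant 2. The lower one was lost without the trend, without control 1, without control 2 and without mutant 2. Slc16a10, which carries aromatic amino acids, had 369 and 335 in mutants and 52.9 and 42.1 in controls and rose by 2.90 ± 0.17 (adjusted p = 1.08e-05). Slc66a1, the lysosomal exporter of cationic amino acids, had 220.0 and 221 in mutants and 73.0 and 84.5 in controls. Slc25a12 and Slc25a13, the mitochondrial aspartate and glutamate carriers, rose by 1.07 and 0.48. Ctns, the lysosomal cystine exporter, had 84.5 and 83.1 in mutants and 95.6 and 102 in controls and did not pass.

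Genes that respond to amino acid shortage through ATF4 moved both ways. Of 15 tested 6 were higher and 7 lower, with a median of -0.29, where 20.6% of all tested genes were higher and 24.5% lower. The lower ones numbered 4 without control 1 and likewise without control 2, and the higher ones 3 without the intensity trend. Atf4 itself had 1541 and 1373 in mutants and 1041 and 875 in controls. Chac1, which breaks down glutathione, had 377 and 464 in mutants and 18.1 and 6.67 in controls and rose by 5.25 ± 0.42 (adjusted p = 5.67e-05), a size that is uncertain because control 2 lay below background. Vldlr, a lipoprotein receptor, rose by 2.12, while Cebpb and Nupr1, transcriptional regulators, fell (-0.94 and -1.67). Atf4, Ctns, Phgdh and Cth were picked out for their roles after their values had been seen.

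Of 11 tested genes for serine, glycine, proline and asparagine synthesis 3 were higher and 5 lower, beside 20.6% and 24.5% of all tested genes. The higher ones numbered 1 without the intensity trend and likewise without control 2. Psat1 and Psph, the later steps of serine synthesis, had 798 and 676, and 245 and 209, in mutants, against 2711 and 2914, and 791 and 624, in controls. Both fell (-1.94 ± 0.11 and -1.64 ± 0.15), whereas Phgdh, the first enzyme of that pathway, did not pass (-0.22 ± 0.08, adjusted p = 0.0745). Mthfd2, of mitochondrial folate metabolism, rose by 1.36, and Shmt1, which interconverts serine and glycine, fell by 0.75. Of 9 tested genes for cysteine and glutathione synthesis 1 was higher and 2 were lower, beside 20.6% and 24.5% of all tested genes. Without control 2 or without mutant 2 the higher ones numbered 0, without control 1 they numbered 2, and without mutant 2 the lower ones numbered 4. Cbs, which starts cysteine synthesis from homocysteine, had 13.6 and 18.2 in mutants and 199 and 219 in controls (-3.73 ± 0.23, adjusted p = 1.42e-05). Mutant 1 lay below background for Cbs, so the size of that fold is uncertain. Cth, the next enzyme of that route, did not pass (-0.53 ± 0.23, adjusted p = 0.108). Gclc, for the first step of glutathione synthesis, fell by 0.65, and Gss, for the second, rose by 0.65.

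Genes for charging tRNA with amino acids and for sensing them mostly did not pass. Of 20 tested aminoacyl-tRNA synthetase genes 5 rose, among them Mars1, Sars and Gars by 0.74, 0.70 and 0.52, and 14 did not pass. The 1 that fell, Fars2 (-0.90), encodes the mitochondrial enzyme for phenylalanine. Of 24 tested genes of lysosomal amino acid sensing upstream of mTORC1, 2 were higher, 4 lower and 18 did not pass. Castor2, a relative of the arginine sensor Castor1, rose by 1.49, and Lamtor4, Lamtor2 and Sesn1 fell (-0.69, -0.55 and -0.70). These were 6 of 20 and 6 of 24 called, beside 45.1% of all tested genes. The synthetase genes called higher numbered 3 without control 2 and 2 without the intensity trend. The sensing genes called higher numbered 1 without the trend, and also without control 1, control 2 or mutant 2.

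**Figure D3:**
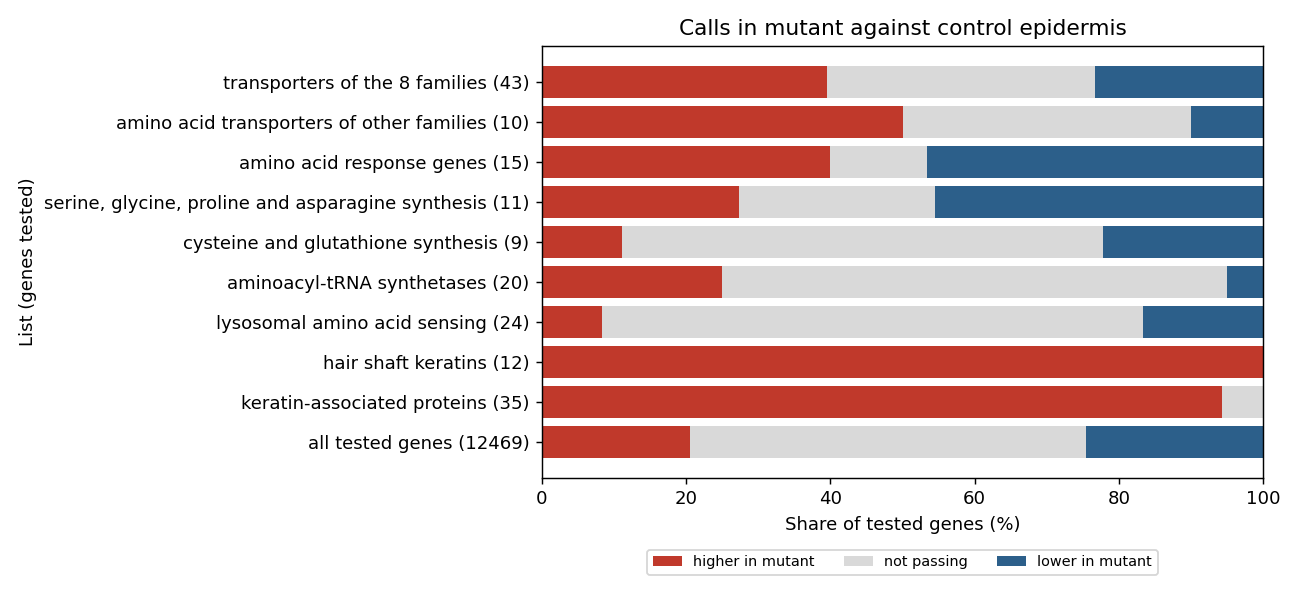
Share of tested genes called higher, not passing or called lower in mutant against control epidermis, with the number tested in parentheses. By the share called higher, the transporters (17 higher and 10 lower of 43) lie between the hair keratins (12 of 12 higher) and the sensing genes (2 higher and 4 lower of 24). The bar of all 12469 genes gives the background.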

How the data were processed

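Epidermal RNA of 4 embryos (2 mutant, 2 control) was read on Affymetrix Mouse430_2 arrays, after 1 cycle of amplification per the labels' protocols. The deposited intensity values are on a linear scale; GCOS and MAS5 made them, per the submitters' processing notes (versions not given in the sources used here). The trimmed mean (2% off either end) of each array was 150, so no further normalization was applied. The authors' deposited table holds GCRMA ratios to the control mean, per the file headers, for probe sets called Present on at least 2 of 4 arrays and changed at least 2-fold. Its fold is control over mutant. Per the file headers the 4 arrays were scanned on 1 day with 1 scanner, each in its own module of 1 station.

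The 64 control probe sets among 45101 did not enter. Symbols came from the platform annotation and were updated through Entrez identifiers with a GRCm38.p6 gene table (34741 of 34945 single-gene probe sets, 129 of 129 of the transporters). Log2 signals were fitted with limma 3.58.1 in R 4.3.3 (lmFit, then eBayes with trend) for mutant minus control. Two-sided p-values were adjusted over 28434 probe sets by Benjamini-Hochberg. Errors are standard errors of the fit. The number of arrays limits the precision. Where both arrays of 1 group were at or below their 40th percentile, "at least N-fold" compares the mean log2 signal of the brighter group with that of the dim one, each dim signal raised to at least that percentile. The scripts were tested on simulated data.

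Every member could be named. Signals on each array are given for members called with a fitted change of at least 1 (log2), for Slc3a1, Slc3a2, Slc7a5 to Slc7a11, Slc1a4, Slc1a5, Slc7a1, Slc38a1 and Slc38a2, and for others as examples. Up to 4 called genes with the largest moderated t were named per companion list. The members and lists were chosen with earlier results of these data known. The alternatives were quantile normalization, median centring, no filter, a filter at the 60th percentile, an offset of 16, no intensity trend, the replicate number as a block, leaving out each array, and other choices of probe set.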

Additional observations from a re-analysis of the deposited data

How the results depend on the processing

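None of the 27 calls changed direction in any of the 11 alternative fits. Of these, 13 calls were kept in each fit that tested them, 9 of the 17 rises and 4 of the 10 falls. The kept rises were of Slc7a8, Slc38a1, Slc38a3, Slc1a5, Slc36a4, Slc6a6, Slc6a8, Slc6a15 and Slc7a1, and the kept falls of Slc1a3, Slc15a1, Slc15a3 and Slc38a4. The count of transporters lower was 5 without the intensity trend, and the cause was not tested. That fit lost 11 calls, of Slc15a2, Slc1a4, Slc38a10, Slc38a6, Slc3a2, Slc43a2, Slc6a14, Slc6a19, Slc7a11, Slc7a2 and Slc7a6 (adjusted p = 0.0524 to 0.140), and passed Slc3a1 and Slc6a13. Median centring lowered every change by 0.11 (log2), lost the calls of Slc38a6 and Slc38a10 and passed Slc43a3. Leaving out 1 array gave 12 to 14 transporters higher and 6 to 11 lower, with 6 lower without control 2. The labels number the arrays 1 and 2 in each group. Same-numbered arrays did not deviate together (correlation of deviations 0.015), so the numbers were not taken as pairs. With the replicate block, 17 transporters were higher and 12 lower, and 0 calls were lost, while Slc43a3 and Slc6a2 passed as lower. Signals near background limit how precisely a fold can be given.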
